A study of Rattus norvegicus with 2 samples.

Results

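The probes described here were the 3588 MRAK probes, chosen as the non-control probes present on both arrays whose transcript name starts with MRAK, out of 24684 non-control probes in all. MRAK names stand for rat transcripts inferred from mouse full-length cDNA clones, and the array carries them among its long non-coding RNA probes. Each MRAK name had 1 probe, and each probe was printed as 3 spots. The RNA came from neural stem cells of the hippocampus of Sprague-Dawley rats at postnatal day 3, grown without serum in medium with bFGF and used at passage 3. The sevoflurane group (1 array) was kept under 2.4% sevoflurane for 6 h. The control group (1 array) was kept under 0% sevoflurane for 6 h. Both then spent 24 h in an ordinary incubator with 5% CO2, although other labels name only the 6 h point. With 1 array per group no difference below has a replicate check, and no test or p-value is given. The scans were made on separate days, 1 array on each, and the effect of the day and that of the gas cannot be told apart.

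Long non-coding RNAs are transcripts without a long open reading frame. Some act in the nucleus on chromatin and on the transcription of nearby genes, others in the cytoplasm on RNA stability and translation, and many are known to be restricted to particular cell types and stages of the developing brain. Full-length cDNA collections from mouse tissues were a main source of such transcripts, and a rat counterpart can be inferred where the mouse sequence aligns to the rat genome. Neural stem cells divide to renew themselves and give rise to neurons and glia. Sevoflurane is an inhaled general anaesthetic that acts on ion channels and neurotransmitter receptors. The title of the series asks which long non-coding RNAs go with the self-renewal of these cells under sevoflurane.

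Signals below are the processed intensity of Agilent Feature Extraction, a background-corrected brightness in scanner units, averaged over the usable spots of a probe on the log scale. Differences are sevoflurane minus control in log2 units, after the 75th percentile of all probes was subtracted from each array. That percentile was lower on the sevoflurane array, so equal raw signals on both arrays give a difference of 0.93. A probe was called measured when most of its usable spots were well above background on both arrays. The brightness of a probe also depends on its sequence, so it ranks no transcript against another.

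Of the 3588 MRAK probes, 1938 were measured on both arrays, 734 were well above background on the sevoflurane array only, 88 on the control array only, and 819 on neither. The remaining 9 lacked a usable spot on 1 or both arrays. Among all 24629 usable probes, 18.2% were well above background on the sevoflurane array only and 1.61% on the control array only, against 20.5% and 2.46% of the MRAK probes. The share of MRAK probes well above background was 74.7% under sevoflurane and 56.6% in the control, against 87.6% and 73.7% of messenger RNA probes. MRAK probes were dim as a set. Their median signal was 26.4 under sevoflurane and 14.8 in the control, where messenger RNA probes had 89.9 and 112. Probes of ultraconserved elements were dimmer still, at 15.0 and 2.96.

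Among the 1938 measured MRAK probes, 684 (35.3%) were at least 2-fold higher and 401 (20.7%) at least 2-fold lower, against 32.8% and 12.3% of all measured probes. The remaining 853 (44.0%) were within 2-fold. The median difference of MRAK probes was 0.28, beside 0.36 over all measured probes, and its sign turned with the scaling. After quantile normalization 266 were higher and 708 lower, after the intensity-dependent correction 293 and 602, after median scaling 281 and 888, and by the deposited values 264 and 701, with medians between -0.80 and -0.35. Over all measured probes the median was at -0.10 by the deposited values and after quantile normalization, at 0.0090 after the intensity-dependent correction, at -0.73 after median scaling and at 0.44 after normexp. Under each of these scalings the MRAK median lay below that of all measured probes, except after normexp, where it was 0.49. Shares of all measured probes under these other scalings are not given, so the counts alone do not set MRAK probes apart.

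The direction also went with brightness. In 10 equal groups of measured probes by mean level, the median MRAK difference was 1.68 in the dimmest group, 0.58 in group 3, -0.24 in group 5, -0.72 in group 7, -0.89 in group 9 and -0.35 in the brightest. All other probes had medians of 1.75, 1.01, 0.34, -0.10, -0.12 and 0.18 in the same groups. Both sets thus started close together among dim probes, and the MRAK medians were lower than the others from there on. In the dimmest group 0 of 296 MRAK probes and 1 of all 1605 probes were at least 2-fold lower. A measured probe had to be well above background on both arrays, which limits how far dim probes can differ. The closeness of the sets there is therefore not a result about MRAK probes. MRAK probes were unevenly spread over the groups: the dimmest held 15.3% of those measured (296 probes) and the brightest 3.61% (70 probes). A count over all measured MRAK probes therefore mixes many dim probes, most of them higher, with fewer bright ones.

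Measured probes were then divided at the median level into 8024 brighter and 8023 dimmer probes, a division given prominence after the values were seen. Among the 614 brighter MRAK probes, 239 (38.9%) were lower and 71 (11.6%) higher by at least 2-fold, against 16.6% and 14.5% of all brighter probes. Their median was -0.74, beside -0.03 for the 7410 other brighter probes, and 451 of 614 (73.5%) were below 0. From the 25th to the 75th percentile the brighter MRAK probes ran from -1.43 to 0.08, and the other brighter probes from -0.62 to 0.58. The lower shares of both sets thus differed far more than their higher shares. The gap between the medians was -0.71. Median scaling shifts all probes alike and so cannot change this gap. Under the remaining scalings the gap stayed between -0.72 and -0.64. Under all 6 scalings at once, 194 brighter MRAK probes (31.6%) were lower by at least 2-fold and 30 (4.89%) higher. The other brighter probes had 11.1% and 4.28%. Median scaling shifts every difference by -1.09, which makes a higher call harder in both sets. It alone also gave 30 higher MRAK probes, so the lower and higher counts under all scalings are not comparable with each other. When the brighter probes were taken by the sevoflurane array alone, the gap was -0.48, with 151 MRAK probes (26.6%) lower and 128 (22.6%) higher, against 11% and 20.1% of the others. Taken by the control array alone it was -0.78, with 304 (45.2%) lower and 37 (5.50%) higher, against 17.3% and 10.6% of the others.

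Among the 1324 dimmer MRAK probes, 613 (46.3%) were higher and 162 (12.2%) lower, against 51.2% and 7.95% of all dimmer probes. Their median was 0.86, beside 1.07 for the other dimmer probes. The dimmer MRAK probes were thus also below the others, by a smaller gap. The need to be well above background on both arrays limits differences among dim probes. This gap is therefore not comparable in size with that of the brighter probes.

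The shift was not shared by every class of non-coding probe. The 542 brighter probes of RefSeq predicted non-coding transcripts (XR names) had a median of 1.0, with 50.4% higher and 4.43% lower by at least 2-fold, the opposite of the MRAK probes. Other probes inferred from mouse sequences lay nearer to MRAK. The 117 brighter probes with names in MRuc had a median of -0.32, with 27.4% lower and 13.7% higher. The 31 with other MR names had a median of -0.63, with 32.3% lower and 19.4% higher. The 353 brighter cDNA clone probes (BC names) had a median of -0.32, with 17.8% lower and 9.07% higher. The 6150 brighter messenger RNA probes had -0.09, with 14.9% lower and 11.6% higher. The 32 brighter probes of ultraconserved elements had a median of -0.19, with 18.75% lower and 18.75% higher. The 185 brighter probes with other names had 0.13, with 18.9% lower and 23.8% higher. No test of these differences between classes was possible with 1 array per group.

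The gap was present across the surface of the arrays, in bands that share probes. The 3 bands of array rows held 405, 425 and 417 of the 614 brighter MRAK probes. The spots of a probe could fall in different bands, so the bands in part measure the same probes again. With single spots compared at the same position on both arrays, in 3 bands of array rows, brighter MRAK probes had medians of -0.70, -0.71 and -0.80, and the share lower by at least 2-fold was 38.5%, 37.2% and 41.0%. Other brighter probes had 15.0%, 14.8% and 14.2% in the same bands. It was also present across the numbering of the clones. The names fall into 14 blocks by the first pair of digits of the clone number, and 12 blocks had at least 20 brighter probes. All 12 had a median below 0, from -0.92 in the block MRAK01 (88 brighter probes) to -0.45 in MRAK00 (56). The share lower by at least 2-fold ran from 25% in MRAK00 to 44.3% in MRAK01. The share of names measured on both arrays ran from 43.1% in MRAK15 to 67.7% in MRAK16.

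The repeated spots show the technical precision. Over the 1714 measured MRAK probes with 3 usable spots on each array, the median SD between spots was 0.098 log2 units under sevoflurane and 0.073 in the control. After the scaling used, all sevoflurane spots lay above all control spots in 901 of these probes. All lay below in 677, and the spots overlapped in 136 (7.93%). Over the 4183 such probes of any class, which include the MRAK probes, 62.9% lay above, 30% lay below and 7.08% overlapped. None of the 957 MRAK probes that differed by at least 2-fold had overlapping spots (0 of 957). Over all 4183 probes with 3 usable spots on each array, MRAK probes included, the same held (0 of 2340). It is thus not particular to MRAK probes within that set. Spots of 1 array share the RNA and the hybridisation, so this spread leaves out differences between cultures. The error given with a difference below is the SE over spots (n = 3 spots per array unless stated).

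The 10 brighter MRAK probes with the highest differences had signals of 1088 to 41822 under sevoflurane, against 27.5 to 554 in the control. MRAK036054 had signals of 8407 under sevoflurane and 40.1 in the control, a difference of 8.64 ± 0.17. Its 3 spots ran from 7648 to 9674 and from 35.7 to 48.1, so the arrays were far apart on every spot. MRAK033229 had 13362 and 66.4, a difference of 8.58 ± 0.10. MRAK011039 had 5337 and 41.1, a difference of 7.95 ± 0.12. These 3 stood at ranks 10, 11 and 20 from the top among all 8024 brighter probes. MRAK080737 was the brightest of this set under sevoflurane, at 41822 against 548 in the control (7.18 ± 0.03), and it remained above 6 under all 6 scalings. MRAK138051 had the same difference (7.18 ± 0.15) at much lower signals of 2097 and 27.5, with 2 usable spots on the sevoflurane array. The control signals of the 3 probes above and of MRAK138051 were below 70, and after normexp, which raises low signals, their differences were 7.25, 7.51, 6.58 and 5.51.

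The other 5 of the 10 highest were smaller and in part less precise. MRAK043605 had signals of 1726 and 40.8 (6.33 ± 0.20). MRAK052537 had 18940 and 554 (6.03 ± 0.13), and MRAK158075 had 8633 and 356 (5.53 ± 0.09), both with control signals well inside the measurable range. MRAK037913 had 1088 and 54.2 (5.26 ± 0.46), and its control spots ranged from 35.6 to 100.2, the widest spread among these 10 probes. MRAK013672 had 1279 and 101 (4.59 ± 0.28).

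At least 8-fold higher were 17 of the brighter MRAK probes, 2.77%, against 2.17% of all brighter probes. MRAK probes made up 9.77% of the 174 brighter probes that were this much higher, near their share of 7.65% of brighter probes. The 7 not yet named were singled out after their values were seen. MRAK171181 had signals of 17364 and 2639 (3.65 ± 0.18), the strongest control signal of the 17. MRAK080554 (1475 and 254), MRAK044256 (1522 and 270), MRAK043097 (621 and 118), MRAK044010 (783 and 161) and MRAK041440 (678 and 148) were higher by 3.12 to 3.47. MRAK006220 (2072 and 480) was at 3.04 ± 0.47, and its spots varied widely on both arrays (SD 0.49 and 0.64). Of the 17, 13 remained at least 8-fold higher after normexp and 10 after median scaling, and all 17 remained at least 2-fold higher under each of the 5 other scalings.

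The 10 lowest brighter MRAK probes had control signals of 1192 to 4088, against 43.7 to 167 under sevoflurane, all well above background. MRAK013810 had signals of 43.7 under sevoflurane and 1589 in the control, a difference of -4.25 ± 0.13. Its spots ran from 38.0 to 51.7 and from 1556 to 1607. MRAK036014 had 50.3 and 1791, a difference of -4.22 ± 0.06. These were the third and the fourth lowest of all 8024 brighter probes. MRAK160944 had 120 and 3149 (-3.79 ± 0.08), MRAK081523 had 78.3 and 2039 (-3.77 ± 0.04), and MRAK090394 had 167 and 4088 (-3.69 ± 0.09). In each of these 5 probes the SE over spots was small beside the difference.

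MRAK136514 had signals of 151 and 3475 (-3.59 ± 0.11) and MRAK158581 of 69.7 and 1554 (-3.55 ± 0.12). MRAK040744 had 61.1 and 1322 (-3.50 ± 0.12). MRAK051643 had 60.2 and 1193 (-3.38 ± 0.06) and MRAK086614 had 61.5 and 1192 (-3.35 ± 0.03), 2 probes with nearly the same signals on both arrays. The 10 lowest probes were smaller in size after normexp, from -3.36 (MRAK090394) to -2.56 (MRAK051643), and larger after quantile normalization, where MRAK013810 was at -4.82.

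At least 8-fold lower were 22 brighter MRAK probes, 3.58%, against 1.27% of all brighter probes, and they made up 21.6% of the 102 brighter probes that were this much lower. The 12 not yet named were singled out after their values were seen. MRAK034213 had the strongest signals of them, 1240 under sevoflurane and 20723 in the control (-3.13 ± 0.07). MRAK134716 had 303 and 5609 (-3.28 ± 0.06), and MRAK034034 had 253 and 4821 (-3.32 ± 0.09). The control signals of the other 9 lay between 983 (MRAK162558) and 3143 (MRAK161857), and their sevoflurane signals between 58.6 (MRAK162558) and 194 (MRAK045616). These were MRAK076141, MRAK161857, MRAK138918, MRAK141115, MRAK160844, MRAK048605, MRAK038983, MRAK162558 and MRAK045616, with differences from -3.33 to -3.03. All 22 stayed at least 2-fold lower under each of the other 5 scalings, and 8 of them at least 8-fold lower after normexp.

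In the brightest of the 10 level groups, 16 of 70 MRAK probes were at least 2-fold lower and 11 at least 2-fold higher, or 22.9% and 15.7%, against 9.72% and 16.7% of all probes of that group. The share higher was thus close to the background share. The probes of this paragraph were named after their values were seen. Below MRAK034213 came MRAK013763, with signals of 1205 and 13916 (-2.60 ± 0.03), then MRAK014760 with 1422 and 10114 (-1.90 ± 0.05) and MRAK011193 with 1549 and 10456 (-1.82 ± 0.04). MRAK011597 had 4115 and 21813 (-1.48 ± 0.06), and MRAK050770 had 1572 and 8101 (-1.44 ± 0.06). These 5 were lower by at least 2-fold under all 6 scalings. On the higher side, below MRAK080737, MRAK052537 and MRAK171181, the differences dropped to 1.82 ± 0.04 for MRAK049379 (5201 and 2811), 1.64 ± 0.04 for MRAK030919 (4775 and 2915) and 1.59 ± 0.06 for MRAK054549 (5955 and 3766). These last 3 were below 1 after median scaling, at 0.73, 0.56 and 0.51.

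Of the 5 brightest MRAK probes by mean level, 4 differed by less than 2-fold in raw signal. MRAK149123 had signals of 55961 under sevoflurane and 54022 in the control, which gave 0.98 ± 0.06 after scaling. MRAK148606 had 53032 and 38672 (1.39 ± 0.10), and MRAK154943 had 47353 and 37702 (1.26 ± 0.10). MRAK078618 had 17298 and 16701 (0.98 ± 0.07), while MRAK012306, the exception, had 8121 and 24244 (-0.65 ± 0.03). The call at 2-fold of MRAK148606 and MRAK154943 rests on the scaling: they were at 0.57 and 0.32 after quantile normalization and at 0.51 and 0.41 after the intensity-dependent correction. The brightest probes within 0.25 log2 units of 0 were MRAK165779 (9079 and 15259, 0.18 ± 0.04), MRAK004284 (7256 and 12816, 0.11 ± 0.06), MRAK172180 (5265 and 11107, -0.15 ± 0.02), MRAK084895 (3353 and 7377, -0.21 ± 0.17) and MRAK050264 (2528 and 5448, -0.18 ± 0.07). The first pair of them turned negative after quantile normalization, at -0.31 and -0.26.

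Under the scaling used, the highest and the lowest difference among dimmer measured MRAK probes lay beyond those among brighter ones. The dimmer probes were also named after their values were seen. MRAK021245 had signals of 4190 and 11.7 (9.41 ± 0.15), MRAK144466 had 875 and 9.45 (7.46 ± 0.11), and MRAK138470 had 343 and 9.40 (6.12 ± 0.15). Their control signals lay close to the lowest one well above background on that array, 7.22, and after normexp the differences were 6.74, 4.64 and 3.39. On the lower side, MRAK013801 had 14.9 and 886 (-4.97 ± 0.15), MRAK080602 had 16.5 and 657 (-4.38 ± 0.13), and MRAK046773 had 15.3 and 477 (-4.03 ± 0.21). These were at -2.71, -2.33 and -1.98 after normexp. The order turned there: the brighter probes MRAK033229 (7.51) and MRAK090394 (-3.36) lay further out after normexp than any named dimmer probe.

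For probes well above background on 1 array only, the difference has only a lower bound, set by the higher of the probe's own dim signal and the lowest signal well above background on the dim array. The strongest bound was that of MRAK082055, with a signal of 5375 under sevoflurane and one of 8.46 that was not well above background in the control, which makes it at least 1211-fold higher under the scaling used. MRAK143033 had 1143 under sevoflurane and was at least 302-fold higher, MRAK034779 had 851 (at least 225-fold), MRAK136710 had 776 (at least 205-fold) and MRAK083997 had 530 (at least 140-fold). Their control signals ran from 2.34 to 4.78. The bounds depend on the scaling. For MRAK082055 the bound was 570-fold after median scaling, 510-fold after quantile normalization and 141-fold after normexp, and for the other 4 probes it was 16.8-fold to 35.0-fold after normexp. In the other direction the bounds were smaller under the scaling used. MRAK164152 had 269 in the control and 5.96 under sevoflurane and was at least 20.5-fold lower, MRAK050904 had 214 (at least 16.3-fold lower), MRAK047801 had 148 (at least 11.3-fold), MRAK044505 had 126 (at least 8.19-fold) and MRAK032303 had 102 (at least 7.81-fold). After normexp these 5 bounds shrank to 2.97-fold, 2.22-fold, 1.87-fold, 1.45-fold and 1.38-fold, so that 3 of them no longer reached 2-fold, while after quantile normalization they were 26.8-fold to 60.7-fold. Over all 734 MRAK probes seen only under sevoflurane, 93 (12.7%) were at least 8-fold higher by this bound, against 13.7% of other such probes. Over the 88 seen only in the control, 4 (4.55%) were at least 8-fold lower, against 4.87%.

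Markers of cell types also differed between the arrays. Of 12 neural stem cell markers, 11 had a probe and all 11 were measured on both arrays, with 2 higher and 2 lower by at least 2-fold. Their summed signal was 37169 under sevoflurane and 57289 in the control, and their median difference was -0.46. The sums in this paragraph are raw signals, whereas medians and counts are scaled. Equal sums on both arrays would thus stand for a difference of 0.93. Of 8 measured neuronal markers, 5 were lower and 0 higher, with summed signals of 18578 and 83700 and a median of -1.17. Of 7 measured microglial markers, 5 were lower and 0 higher (1234 and 11862, median -2.59), and 6 of 6 measured red cell markers were higher (51166 and 17737, median 3.40). Astrocyte markers had 3 of 5 measured higher and 0 lower (212 and 275, median 1.27), oligodendrocyte markers 2 of 5 and 0 (552 and 626, median 0.97), and mesenchymal markers 3 of 5 and 0 (22360 and 33026, median 1.40). These counts stand beside 32.8% higher and 12.3% lower over all measured probes. Among dimmer measured probes alone the shares were 51.2% and 7.95%. The astrocyte markers were all dim, at 24.8 to 66.1 under sevoflurane and 12.8 to 149 in the control. Most oligodendrocyte markers were dim as well. Of the 3 higher mesenchymal markers, Thy1 (39.5 and 12.6) and Rgs5 (52.1 and 9.56) were dim, and Pdgfrb (912 and 660) was brighter. The brightest mesenchymal markers, Col1a2 and Col3a1, were at 0.35 and 0.31. Whether the MRAK differences go with these cell types was not tested. In bulk RNA, fewer cells of a type and less RNA per cell cannot be told apart.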

How the data were processed

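One-colour (Cy3) arrays of total RNA were read with version 11.0.1.1 of Agilent Feature Extraction, per the submitters' processing notes and the file headers. The deposited scanner values are linear spot intensity, already corrected for background and not scaled between arrays. The deposited value table reads as log2 intensity scaled between arrays by a method not given in the sources used here. Control spots and spots flagged as outliers (209 of 10764 MRAK spots on the sevoflurane array, 221 on the control array) were left out. No spot was saturated. Log2 processed signals were averaged over spots, and each array's 75th percentile over probes was subtracted (Python 3.11.15, pandas 2.3.3, numpy 2.4.6). The number of arrays, 1 per group, limits the precision.

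Alternatives were quantile normalization, median scaling, an intensity-dependent lowess correction (span 0.3, statsmodels 0.14.6), normexp with offset 50 (limma 3.58.1, R 4.3.3), the deposited table, other rules for measured probes, and outlier spots kept. Normexp used the median spot signals, since the scanner files used here have no mean spot signal column. The steps were tested on simulated data. Messenger RNA probes are those with NM or XM names; markers were named through RefSeq accessions.

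Probes named are the 10 highest and 10 lowest differences among brighter measured MRAK probes, the 5 brightest, the 5 brightest within 0.25 log2 units of 0, and the 5 strongest bounds in each direction, with others as stated. The members, lists and rules were chosen with earlier results of these data known. Probe sequences and positions were not used here.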

Additional observations from a re-analysis of the deposited data

How the results depend on the processing

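The counts over all measured MRAK probes depend on the scaling, and no share over all measured probes is given beside them here. Against 684 higher, 401 lower and a median of 0.28, quantile normalization gave 266, 708 and -0.53, median scaling 281, 888 and -0.80, the intensity-dependent correction 293, 602 and -0.35, and the deposited values 264, 701 and -0.53. Normexp moved the median to 0.49 and kept both counts within 1.5 times. With no filter on dim probes 2192 were higher, with a median of 1.58; the brighter probes alone gave 71 higher, 239 lower and a median of -0.74. Requiring all spots to be well above background, or keeping outlier spots, left each of these values within 1.5 times or the spot spread. Among the 614 brighter probes, with alternatives chosen after seeing the data, median scaling gave 462 lower and 30 higher. The reason is that it shifts every difference by -1.09. These counts were 75.2% and 4.89% of the brighter MRAK probes. The 7410 other brighter probes had 55.2% lower and 4.26% higher, so the lower count is in large part not particular to MRAK probes. Taking the brighter probes by the sevoflurane array gave a gap of -0.48, 151 lower and 128 higher; by the control array, 37 were higher. The cause of these changes was not tested, apart from that shift. Of the 30 named measured probes, 22 differed by at least 2-fold and none of these changed sign (0 of 110 values under the 5 other scalings); of the 8 within 2-fold, 4 changed sign under at least 1 scaling. Several of the highest differences had low control signals, and their size is uncertain. MRAK036054, with a control signal of 40.1, was at 8.64 under the scaling used and at 7.25 after normexp. MRAK080737, with 548, was at 7.18 and 6.97. No paired analysis was possible because each group holds 1 array. The planned comparison with neighbouring messenger RNA probes was not run, since it needs probe positions, not used here.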
